A study of Mus musculus with 2 samples.

Results

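Intergenic transcript models are long-read transcripts that the authors placed outside every annotated gene of the mouse genome. They were taken here as all models whose deposited class is Intergenic in adrenal gland tissue of male B6CASTF1/J mice aged 25 days, a hybrid of C57BL/6J and CAST/EiJ. There were 4794 of them among 244752 models: 1706 of 104489 in replicate 1 and 3088 of 140263 in replicate 2. The 2 libraries form 1 group with no treatment and no other genotype, so nothing was compared between conditions. Both libraries carry synthetic spike-in RNAs, and an RNA input of 1 µg is given for replicate 2 alone. The library descriptions name the same animal, the tissue descriptions name different ones and both share a donor record. The labels therefore do not settle whether the spread between the libraries is technical, and tissue markers also differed between them, as given below. P-values between them measure reads and not animals.

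Much of a mammalian genome between annotated genes is transcribed at a low level. Such RNAs include long noncoding RNAs with their own promoters, RNAs that start on the opposite strand at the promoter of a gene (divergent transcription), RNA made past the 3′ end of a gene, and transcripts of endogenous retroviruses and other repeats. Many are found in few tissues and in few copies per cell. A model in a single library rests on the reads of that library alone, so its return in another library is the first thing to measure.

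Several sets of tissue markers differed between the libraries. The 7 adrenal cortex markers, all detected in both, had 61457 CPM together in replicate 1 and 25032 CPM together in replicate 2, where CPM scales counts to the reads of annotated genes. The 5 medulla markers, likewise all detected, had 9412 and 7114 CPM together. The 6 liver markers reached 5.32 CPM in replicate 1, with Ttr, Apoa1, Ahsg and Fgb at 0 reads, and 43821 CPM in replicate 2. The 5 skeletal muscle markers reached 2265 CPM in replicate 1, against 0.826 CPM in replicate 2, where Acta1, Ckm, Myh4 and Tnnt3 were at 0. Erythroid markers had 1960 and 2010 CPM, brown fat markers 1556 and 1121 CPM, and kidney markers 0 and 1.65 CPM. In tissue, fewer cells of a type and less RNA per cell cannot be told apart, and the part these markers have in the differences between libraries below was not tested.

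Some loci had their 5′ end at gene starts that RefSeq holds and the annotation of the files (GENCODE M21) does not, and others had it at the start of an annotated gene on the other strand. Loci here are the intergenic models of both libraries joined where their exons overlap on the same strand. Locus reads and bounds include those of later models of other classes that the authors assigned to the same locus. The exon number of a locus is that of its intergenic models alone, so a single-exon locus may hold later models with more exons. The start windows below are shown because the 5′ ends of the models lie in them. Whether an end was moved onto an annotated one upstream was not tested. They are RefSeq windows of GRCm38.p6, the assembly of mm10, with 250 bases before and 50 after a gene's start, on the gene's strand. Capitals mark 3 motifs searched on both strands. TATAAA is the core of the site of the TATA-binding protein, CCAAT is the core of the NF-Y site, and GGGCGG is the core of the Sp1 site, with overlapping copies written as 1 run. The first 4 are RefSeq genes absent by symbol from the annotation, with the most reads at a locus starting within 100 bases (Gm51425 tied with Gm33293 and is not shown). The other 2 are genes whose RefSeq start lies within 100 bases of a head-to-head locus sharing a base with them, again with the most reads. These 6 were chosen after their values were seen.

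Gm52720: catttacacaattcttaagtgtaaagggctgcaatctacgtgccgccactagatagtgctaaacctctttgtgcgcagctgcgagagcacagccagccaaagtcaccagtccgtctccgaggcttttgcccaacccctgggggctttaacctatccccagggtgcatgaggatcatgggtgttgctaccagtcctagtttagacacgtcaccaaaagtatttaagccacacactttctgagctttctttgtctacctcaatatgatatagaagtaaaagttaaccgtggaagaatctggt

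Gm38396: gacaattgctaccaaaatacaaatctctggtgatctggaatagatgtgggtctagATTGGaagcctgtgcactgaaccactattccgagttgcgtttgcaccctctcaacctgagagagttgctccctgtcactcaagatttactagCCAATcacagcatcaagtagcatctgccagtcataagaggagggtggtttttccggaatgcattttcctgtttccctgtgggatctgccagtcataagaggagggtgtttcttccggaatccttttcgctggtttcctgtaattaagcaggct

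Gm41287: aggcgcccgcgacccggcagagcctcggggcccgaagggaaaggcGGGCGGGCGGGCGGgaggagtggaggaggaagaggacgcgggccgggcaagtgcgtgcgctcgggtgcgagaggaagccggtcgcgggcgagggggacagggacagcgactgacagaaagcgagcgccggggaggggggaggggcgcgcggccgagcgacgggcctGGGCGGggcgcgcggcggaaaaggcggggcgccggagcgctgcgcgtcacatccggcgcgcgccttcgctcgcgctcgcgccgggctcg

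Gm33293: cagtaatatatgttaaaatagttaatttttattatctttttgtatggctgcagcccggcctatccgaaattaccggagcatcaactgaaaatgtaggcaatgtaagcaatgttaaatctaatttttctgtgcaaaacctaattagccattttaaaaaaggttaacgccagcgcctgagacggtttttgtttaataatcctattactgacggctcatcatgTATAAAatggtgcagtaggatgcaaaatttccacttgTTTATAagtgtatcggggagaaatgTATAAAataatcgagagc

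Tbc1d22a: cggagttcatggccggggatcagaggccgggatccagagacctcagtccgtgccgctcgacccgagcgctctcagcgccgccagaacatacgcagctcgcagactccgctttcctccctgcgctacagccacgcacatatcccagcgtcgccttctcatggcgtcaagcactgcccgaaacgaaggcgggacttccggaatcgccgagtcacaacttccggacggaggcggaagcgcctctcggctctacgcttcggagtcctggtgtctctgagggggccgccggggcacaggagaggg

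Selenoi: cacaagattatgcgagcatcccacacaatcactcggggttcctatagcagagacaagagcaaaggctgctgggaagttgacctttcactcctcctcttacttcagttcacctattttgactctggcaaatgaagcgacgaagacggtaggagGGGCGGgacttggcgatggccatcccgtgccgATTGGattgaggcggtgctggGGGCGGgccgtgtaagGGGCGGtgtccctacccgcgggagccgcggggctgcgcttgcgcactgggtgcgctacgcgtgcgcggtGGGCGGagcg

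The Gm52720 window (chr4:3200250-3200549, minus strand) held none of the 3 motifs. The 2-exon intergenic locus chr4:3192265-3200300 (minus) had its 5′ end 1 base from its start and had 17 reads in replicate 1 and 12 in replicate 2. The Gm38396 window (chr17:17179055-17179354, plus) held CCAAT on both strands, and the 4-exon locus chr17:17179296-17206385 (plus), 9 bases upstream at its 5′ end (position -9), had 3 reads in replicate 1 and 6 in replicate 2. Gm33293 (chr5:67231637-67231936, minus) held TATAAA at position -30 from its start, the usual place of a TATA box, and again further on, and the 2-exon locus chr5:67220876-67231687 (minus) had 4 reads in each library. The Gm41287 window (chr15:31530854-31531153, plus) was of another kind, with a GC content of 79.0% and 4 copies of GGGCGG. Its locus chr15:31531053-31532423 (plus) shared a base with March6, a ubiquitin ligase gene that runs the other way, and had 3 reads in replicate 1 and 6 in replicate 2.

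Tbc1d22a (window chr15:86214209-86214508, plus), of a family of Rab GTPase activators, and Selenoi (chr5:30232331-30232630, plus), an ethanolamine phosphotransferase of phospholipid synthesis, had GC-rich windows (66.0% and 61.7%). The single-exon locus chr15:86212657-86214459 (minus) had its 5′ end on the first base of Tbc1d22a and had 23 reads in replicate 1 and 22 in replicate 2, beside 58 and 41 reads of Tbc1d22a. The 2-exon locus chr5:30223096-30232581 (minus) had its 5′ end likewise at Selenoi and had 5 and 12 reads, beside 24 and 12 reads of Selenoi. The Selenoi window held 4 copies of GGGCGG and 1 of CCAAT, while none of the 3 motifs was in that of Tbc1d22a.

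Across all 32851 windows, TATAAA was in 13.6%, CCAAT in 37.4% and GGGCGG in 35.7%. Taking 1 window per gene, GGGCGG was in 210 of 289 (72.7%) protein-coding neighbours that share a start base with a head-to-head locus, against 65.3% of 346 head-to-head neighbours that share none and 61.1% of 11451 protein-coding genes detected. TATAAA was in 3.46%, 8.67% and 7.70% of the same 3 groups. The median ratio of observed to expected CpG was 0.829, 0.722 and 0.735. A match is only a run of letters. In all, 55 loci began within 100 bases of a RefSeq gene start whose symbol is not in the annotation, 34 of them had more than 1 exon and 17 had reads in both libraries. Of single models, 25 of 1706 (1.47%) in replicate 1 and 46 of 3088 (1.49%) in replicate 2 began within 100 bases of any RefSeq start on their strand. Multi-exon models did so in 15 of 186 (8.06%) and 30 of 273 cases, and single-exon models in 0.658% and 0.568%.

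Intergenic models were few in reads. They made up 1.63% of all models in replicate 1, with an exact 95% interval of 1.56 to 1.71%. In replicate 2 they made up 2.20%, with 2.13 to 2.28%. Of the reads they held 3442 of 793999 (0.434%) and 6007 of 1290342 (0.466%). This is 4574 and 4962 CPM. A single read stood behind 76.7% and 78.7% of them, where 1 read is 1.33 CPM in replicate 1 and 0.826 CPM in replicate 2. At the other end, 36 models in replicate 1 and 62 in replicate 2 had at least 10 reads and held 30.4% and 29.5% of all intergenic reads. Later models of other classes at the same loci added 253 and 335 reads. The intervals cover counting error only, since copies made by PCR may be counted more than once.

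Most intergenic models were unspliced, and by median length they were shorter than antisense and known models. More than 1 exon was present in 186 of 1706 (10.9%) in replicate 1 and 273 of 3088 (8.84%) in replicate 2, against 5.26% and 4.96% of antisense models and 80.0% and 73.8% of models of all other classes together. The median exonic length was 1145.5 bases in replicate 1 and 699 bases in replicate 2, against 1873 and 1425 bases for antisense models and 2340.5 and 2127 bases for known transcripts. Under 200 bases, the usual lower bound of a long noncoding RNA, lay 22.0% and 28.2% of the models, and 3 and 6 models had a length of 1 base. Multi-exon models were longer, with medians of 1833 and 1177 bases. Strands were used alike, with 49.2% and 50.1% on the plus strand.

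**Figure D1:**
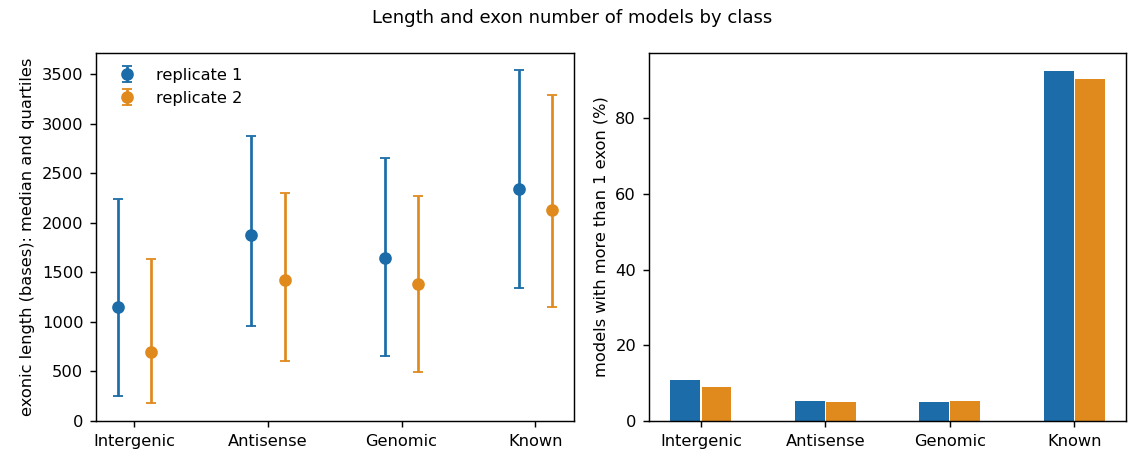
Left, exonic length in bases (points, median; bars, quartiles) of intergenic, antisense, genomic and known models in each library; right, the percent of models with more than 1 exon. Intergenic models were the shortest class of the 4 in both libraries, with medians of 1145.5 and 699 bases, and 10.9% and 8.84% of them had more than 1 exon.

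The 5 models with the most exons rested on 1 read each, and the fifth place was a tie of 5 models with 7 exons, settled by model name. The model chr16:65664249-65737687 (plus) of replicate 2 had 13 exons and lay 50.8 kb from Gm49633. Models of 10 exons were chr2:115370783-115402184 (minus) of replicate 2, near Gm13976, and chr15:52635891-52711579 (minus) of replicate 1, which began 829 bases from Med30, a Mediator subunit. Models of 8 and 7 exons were chr5:105157085-105182289 (minus), upstream of the guanylate-binding protein gene Gbp4, and chr1:172989280-172997838 (plus), downstream of the olfactory receptor gene Olfr16, both in replicate 2. The 5 longest models all had 1 exon, of 7552 to 8130 bases. They were chr16:3625044-3633173 (minus, 1 read), chr13:119661875-119669872 (plus, 5 reads), chr17:87039800-87047422 (minus, 6 reads) and chr15:67176830-67184381 (plus, 2 reads) in replicate 1, and chr8:13504228-13511885 (plus, 1 read) in replicate 2. Their nearest genes were Olfr163-ps1, Gm48300, Cript, the sialyltransferase gene St3gal1 and Gas6, a ligand of TAM receptor kinases.

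Intergenic models lay close to genes. The median gap to the nearest annotated gene, measured from the ends of its annotated transcripts, was 2245.5 bases in replicate 1 and 2370 bases in replicate 2. Over 50 kb from any gene lay 51 of 1704 and 130 of 3086 models, and the other 2 models of each library lay on sequences with no annotated gene. The nearest gene was protein-coding for 65.1% of models in replicate 1 and 63.7% in replicate 2. Those protein-coding neighbours were detected in 86.4% of cases in replicate 1 and 88.6% in replicate 2, against 60.3% and 64.1% of all protein-coding genes. The median level of the detected ones was 31.9 and 24.8 CPM, against 22.6 and 16.5 CPM.

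The gaps had 2 parts, a shared base and a stretch with almost nothing. In replicate 1, 361 models (21.2%) shared a base with an annotated gene, and in replicate 2, 603 (19.5%). In all 361 and 603 cases exactly 1 base was shared, an end of the model on an end of the gene. Where the 5′ end of the model faced the gene, 301 of 948 models (31.8%) in replicate 1 and 470 of 1662 (28.3%) in replicate 2 shared that base, 1 and 15 had gaps of 1 to 500 bases, and 93 and 148 had gaps of 501 to 1000 bases. Where the 3′ end faced the gene, 60 of 756 (7.94%) and 133 of 1424 (9.34%) shared the base, 0 and 2 had gaps of 1 to 300 bases, and 47 and 84 had gaps of 301 to 500 bases. The near-empty stretch thus ended at about 500 bases on one side and 300 on the other, in both libraries. The labels do not say how the authors matched transcript ends to annotated ends, and the part of that step in these counts was not tested.

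**Figure D2:**
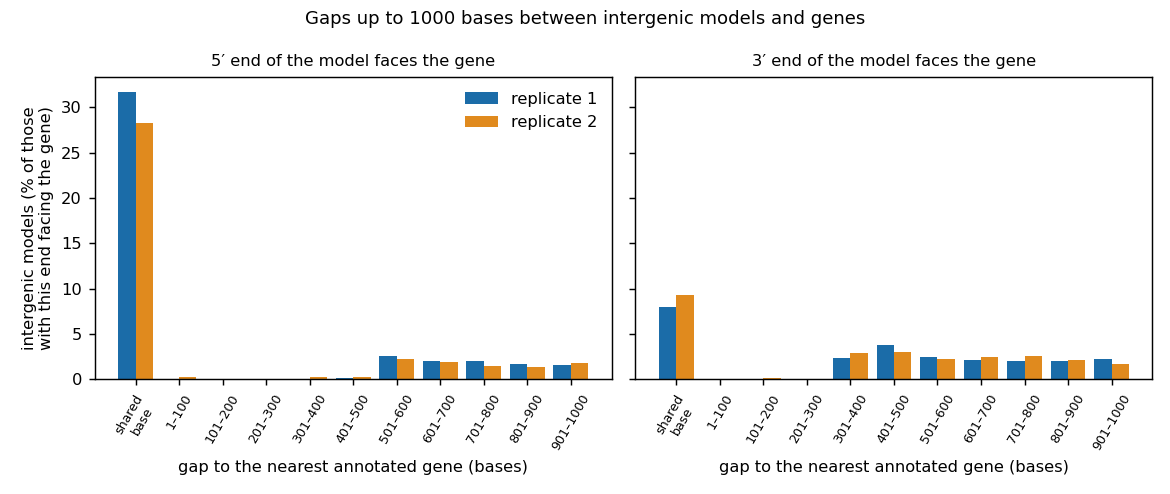
Percent of intergenic models (y axis) at each gap to the nearest annotated gene in bases (x axis), for models whose 5′ end (left) or 3′ end (right) faces the gene, in each library; percents are of all models with that end facing the gene. A shared base is frequent, 31.8% and 28.3% on the left and 7.94% and 9.34% on the right, and gaps up to 500 bases on the left and 300 bases on the right are nearly empty.

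By strand and side, head-to-head pairs shared the base most often: 192 of 477 (40.3%) in replicate 1 and 285 of 855 (33.3%) in replicate 2. As deposited, these models have their 5′ end on the start base of a gene on the other strand, the layout of divergent transcription. Whether their RNA began there was not tested. Models downstream of a gene on its strand, the layout of transcription past a gene end, shared it in 109 of 471 (23.1%) and 185 of 807 (22.9%). Models upstream on the same strand did so in 21 of 365 (5.75%) and 59 of 710 (8.31%), and tail-to-tail models in 39 of 391 (9.97%) and 74 of 714 (10.4%). The protein-coding genes that shared their start base head to head were detected in 167 of 171 cases (97.7%) and 249 of 256 (97.3%). Those that shared a base with a model downstream on their strand were detected in nearly as many, 95.2% and 94.9%. Over all sides it was 94.6% and 95.3%. Multi-exon models were 13.6% and 11.9% of the head-to-head ones, against 9.55% and 7.06% of those downstream.

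Loci with at least 10 reads also lay at the ends of the steroid enzyme genes Cyp11b2 and Srd5a2. The locus chr15:74848914-74851010 (minus) shared the end base of Cyp11b2, the aldosterone synthase of the outer cortex, and had 13 reads in replicate 1 and 22 in replicate 2 (log2 ratio -0.05, SE 0.50, Fisher's exact test, adjusted p = 1). Cyp11b2 itself had 466 and 309 reads, and models assigned to it that cover at least 50% of that locus had 54 and 41. The locus chr17:74014886-74016955 (minus) shared the end base of Srd5a2, a steroid reductase that makes dihydrotestosterone, and had 0 reads in replicate 1 and 33 in replicate 2. Models assigned to Srd5a2 that cover at least 50% of it had 367 and 322 reads, so RNA of this stretch was read in both libraries. Cyp11b2 was chosen after its values were seen.

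Chromosomes held intergenic models roughly as they held detected genes, with 8.19 to 16.6 models per 100 detected genes on chromosomes 1 to 19 and X in replicate 1 and 13.6 to 23.6 in replicate 2. Chromosome Y stood apart, with 16 models beside 5 detected genes in replicate 1 and 17 beside 6 in replicate 2. Much of the mouse Y long arm consists of gene copies repeated many times over, so reads there cannot be tied to 1 copy with certainty. The Y models held 130 and 59 reads. Scaffolds had 9 models beside 21 detected genes and 17 beside 26.

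**Figure D3:**
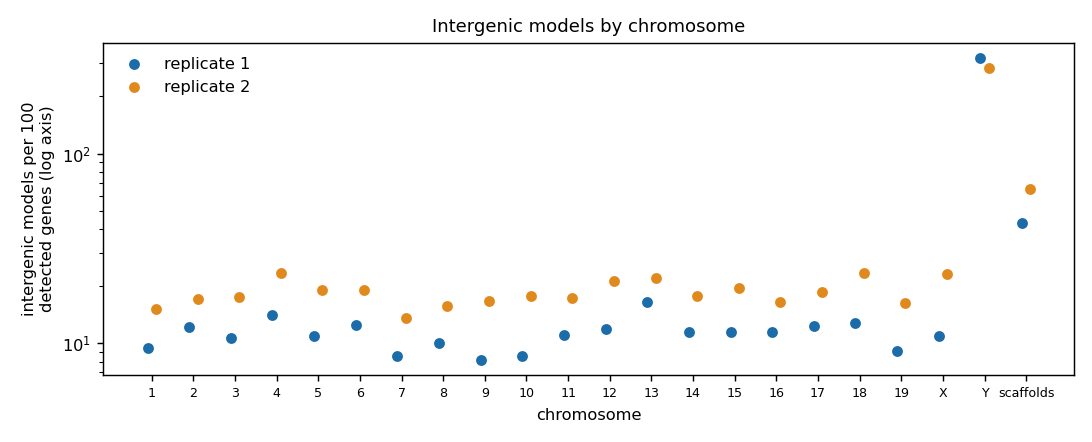
Intergenic models per 100 detected annotated genes (y axis, log scale) on each chromosome and on all scaffolds together (x axis) in each library. Chromosome Y, with 5 and 6 detected genes, lies far above the range of 8.19 to 23.6 of the autosomes and X.

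Most intergenic loci did not return in the other library. Of 1706 loci of replicate 1, 579 (33.9%, interval 31.7 to 36.2) overlapped an intergenic locus of replicate 2 on the same strand, and of 3088 loci of replicate 2, 599 (19.4%, 18.02 to 20.84) overlapped one of replicate 1. Another 83 and 100 loci had at least 50% of their exonic bases in same-strand models of another class in the other library, most often antisense (51 of 83 and 44 of 100). No counterpart by these rules on either strand was found for 1006 (59.0%) and 2324 (75.3%). Overlaps under 50% with models of other classes were not counted. The libraries also differ in depth. With replicate 2 thinned to the gene reads of replicate 1, 27.1% of the loci of replicate 1 and 22.0% of the 2164 left in replicate 2 returned. Thinning takes loci out of replicate 2, so the share for replicate 1 could only fall. The part of depth in the missing return was not tested.

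Return was more frequent at loci with more reads. In replicate 1 it was 23.8% of loci with 1 read, 57.7% with 2 to 4, 80.0% with 5 to 9 and 86.5% (32 of 37) with at least 10. In replicate 2 it was 11.9%, 36.2%, 63.8% and 81.2% (56 of 69). Antisense loci returned more often in each band, with 41.5%, 76.7%, 95.9% and 97.2% in replicate 1 and 19.3%, 46.7%, 77.1% and 89.8% in replicate 2. The intervals of the classes overlapped at 10 or more reads and in no other band. Loci with more than 1 exon returned in 39.8% and 24.2%, single-exon loci in 33.2% and 18.9%. Within bands of few reads they lay closer. At 1 read the shares were 23.5% and 13.0% against 23.9% and 11.8%. At 2 to 4 reads they were 59.6% and 39.3% against 57.4% and 35.8%. At 5 or more reads the multi-exon loci, few in number, returned more often. By position, loci sharing a gene's base returned in 39.6% and 20.6%, those over 10 kb away in 30.3% and 17.0%.

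**Figure D4:**
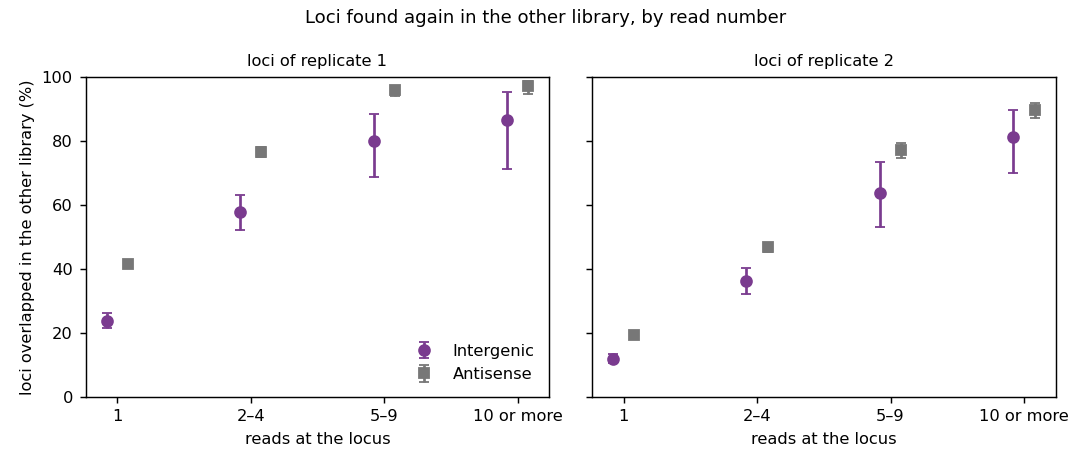
Percent of intergenic and antisense loci overlapped by a locus of the same class and strand in the other library (y axis), by reads at the locus (x axis), for loci of replicate 1 (left) and replicate 2 (right); bars are 95% Clopper-Pearson intervals. Both classes are higher with more reads, and intergenic loci lie below antisense loci in every band, with intervals that overlap at 10 or more reads.

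Where a single-exon locus returned, its 3′ end was better fixed than its 5′ end. Among 504 pairs the 3′ ends differed by a median of 1 base and lay within 10 bases in 76.0%. The 5′ ends differed by a median of 25.5 bases and lay within 10 bases in 48.4%. Among the 365 pairs that share no base with a gene, the medians were 1 base at the 3′ end and 105 bases at the 5′ end.

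Identical intron chains were rarer than overlaps. Of the multi-exon models, 27 of 186 (14.5%) in replicate 1 and 27 of 273 (9.89%) in replicate 2 had the same chain in the other library, and with at least 2 reads 15 of 36 (41.7%) and 12 of 31 (38.7%). Counting any class in the other library, the chain was found for 42 (22.6%) and 34 (12.5%). The Y chain in chrY:43918755-43923547 (minus) was carried by models of 823 bases in replicate 1 and 4715 bases in replicate 2. Their 5′ ends lay 3893 bases apart. This chain had the most reads, 110 in replicate 1 and 12 in replicate 2, and an intron of 77 bases. Next were the chain of the Gm52720 locus on chromosome 4 (10 and 9 reads), chr10:79314315-79322414 (minus, 8 and 5 reads, 19.8 kb from the vomeronasal receptor gene Vmn2r81) and chr13:21813006-21820121 (plus, 6 and 5 reads, 859 bases downstream of the histone gene Hist1h4m).

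The 4-exon chain of the Gm38396 locus had 3 reads in replicate 1 and 5 in replicate 2. The chain of chr5:139485054-139512000 (plus), with an intron of 26788 bases, had 1 and 7 reads and began 506 and 505 bases from the start of Zfand2a, a stress-induced zinc finger gene. The chain of chr12:4876666-4879032 (minus) had 3 reads in each library and shared the end base of Ubxn2a, and that of chr6:83775813-83782989 (plus) had 4 and 1 and shared the start base of Tex261. These chains reached both libraries with few reads, so each is a structure seen again and not a measured level.

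Among loci with more than 1 exon, the Y locus had the most reads, 148 in replicate 1 and 21 in replicate 2. The X locus chrX:32502591-32507553 (plus), 52.5 kb upstream of Btbd35f1, had 52 and 100, which is 69.1 and 82.6 CPM (log2 ratio -0.25, SE 0.25, adjusted p = 0.473, and called lower in replicate 1 under TMM and DESeq2 scaling). Both lie by genes that come in many near-identical copies, and their counts are uncertain for that reason. The loci chr11:88890249-88896412 (minus, 31 and 77 reads, nearest gene Gm23507, not called by reads but lower in replicate 1 under TMM and DESeq2 scaling) and chr12:23020265-23027041 (minus, 33 and 48 reads, near the pseudogene Gm48064) followed.

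The Gm52720 locus, described above, also ranks among these, and 4 of the remaining 5 had a detected protein-coding gene as neighbour. The locus chr15:76559886-76566448 (minus) had 9 reads in replicate 1 and 49 in replicate 2, 9.91 kb from Adck5, a mitochondrial kinase-like gene with 241 and 371 reads. Head to head with Vars, the valyl-tRNA synthetase, at 630 bases, chr17:34996730-35000357 (minus) had 15 and 19 reads. The locus chr10:45057922-45067203 (minus) shared the start base of Prep, a prolyl endopeptidase, and had 15 and 13 reads, and chr17:86157936-86167785 (minus) shared that of Prkce, a protein kinase C, with 13 and 9. The locus chr17:87039800-87050684 (minus), 3.01 kb from the snoRNA gene Gm24648 with 0 reads in both libraries, had 9 and 17. Its intergenic model in replicate 1 is the single-exon model of 7623 bases named above, with 6 of the 9 reads. Of these 5 loci, that near Adck5 was lower in replicate 1 (log2 ratio -1.69, SE 0.51, adjusted p = 0.00102), and the other 4 did not pass the test.

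The single-exon locus with the most reads was chr13:55184679-55189155 (plus), 15.9 kb downstream of Fgfr4, a fibroblast growth factor receptor. It had 188 reads in replicate 1 and 88 in replicate 2, which is 250 and 72.7 CPM (log2 ratio 1.78, SE 0.19, adjusted p = 4.74e-22), and Fgfr4 had 97 and 50. The locus chr19:4061500-4066103 (minus), 1.93 kb upstream of Gstp3, a glutathione transferase, had 26 reads in replicate 1 and 179 in replicate 2 (log2 ratio -2.07, SE 0.30, adjusted p = 8.16e-15). Gstp3 itself had 0 and 76 reads. The locus chr14:32115642-32118249 (plus), 12.4 kb downstream of Oxnad1, had 62 and 75 reads and did not differ by the test (log2 ratio 0.41, SE 0.25, adjusted p = 0.19).

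Of the other abundant single-exon loci, chr4:145568804-145573616 (minus) had 15 reads in replicate 1 and 113 in replicate 2 (log2 ratio -2.19, SE 0.39, adjusted p = 3.74e-10) and lay 912 bases from the pseudogene Gm13228. The locus chr12:24635619-24651274 (minus) had 41 and 61 reads and shared a base with the pseudogene Gm6969. Its longest intergenic model had 3051 bases, far short of these bounds. The locus chr7:28187294-28189073 (minus) had 35 and 69 and met Dyrk1b, a kinase gene, tail to tail on its last base. The locus chr2:75638370-75642874 (plus), 4.99 kb from Gm13655, had 47 and 37 (log2 ratio 1.03, SE 0.32, adjusted p = 0.0043, and 0.0982 under TMM scaling). The locus chr4:133096180-133101553 (plus), 7.03 kb downstream of the noncoding gene Gm26615, had 28 and 33. A locus of 110 bases on an unplaced scaffold with no annotated gene had 3 and 86. Reads of loci beside processed pseudogenes may belong to the parent gene or another copy and are uncertain.

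Reads were compared between the libraries for 120 loci with at least 10 reads in both together, by a two-sided exact test of Fisher, and p-values were adjusted by Benjamini and Hochberg over 11502 annotated genes and loci. Of the 120, 43 were called at an adjusted p under 0.05: 19 higher in replicate 1 and 24 lower in replicate 1. Over all features 36.7% were called, 25.2% higher in replicate 1 and 11.6% higher in replicate 2, against 35.8% of the loci. The share of loci called was thus near that of the background, which was not matched to the loci by read number. The share of loci includes 18 with 0 reads in a library, whose calls were fixed by the read minimum. Scaling by TMM called 15 loci higher and 26 lower in replicate 1, and 1585 and 2035 of all features, against 2895 and 1331 by reads. It moved the median log2 ratio of annotated genes to -0.01, against 0.34. The test compares these 2 libraries and has no replicate check.

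**Figure D5:**
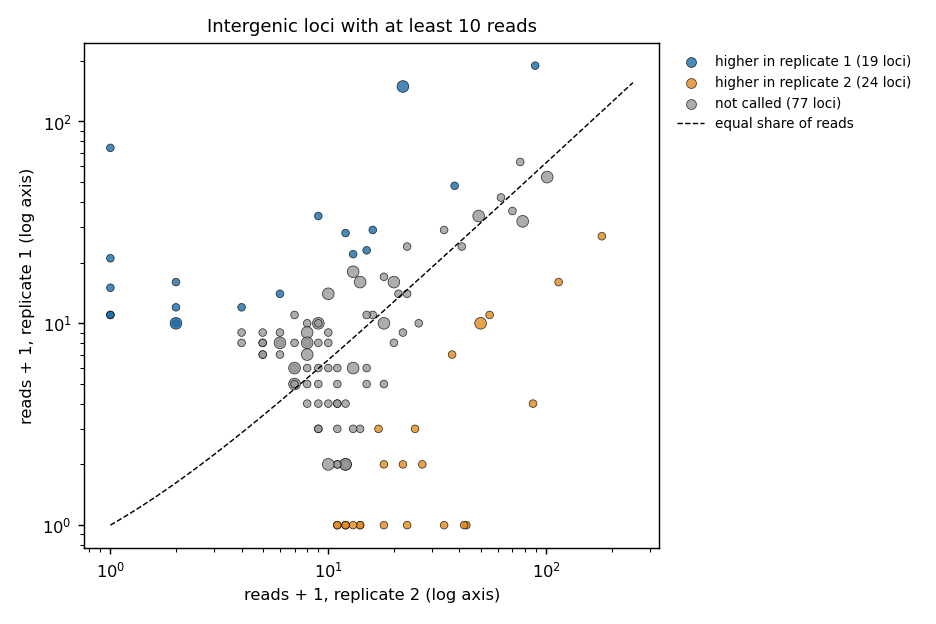
Reads plus 1 in replicate 1 (y axis, log scale) against replicate 2 (x axis, log scale) for the 120 intergenic loci with at least 10 reads, coloured by the call of Fisher's exact test; large points have more than 1 exon and the dashed line marks an equal share of reads. There are 19 loci called higher in replicate 1, 24 called higher in replicate 2 and 77 not called, and 18 of the called loci have 0 reads in a library.

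Of the 43 called loci 18 had 0 reads in a library. These were all the tested loci with 0 reads in a library, and even the smallest count that the read minimum admits passed the test. Their calls thus follow from that minimum together with the 0. Of the 102 tested loci with reads in both libraries, 25 were called. For 6 of the 18, same-strand models of another class covered the place in the library with 0 reads. An example is chr11:86811827-86816126 (minus), 4.08 kb upstream of the helicase gene Dhx40. It had 73 reads in replicate 1 and 0 in replicate 2. Taking 3 reads as the limit for a count of 0, replicate 1 was at least 39.2-fold higher. In replicate 2, however, models assigned to Dhx40 that cover it had 47 reads. The locus chr11:100457022-100461670 (plus), at the end base of Klhl10, a gene known for its role in spermatids, had 0 reads in replicate 1 and 42 in replicate 2, while models of another class there had 50 reads in replicate 1. At both places RNA was read in both libraries, under different classes.

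The other loci with the largest ratios, beside Srd5a2, had no such reads. Higher in replicate 1 were chr18:26003110-26004792 (minus, 20 and 0 reads, at least 10.7-fold higher), the Y locus above (log2 ratio 3.47, SE 0.33), chr5:135624010-135628896 (plus, 33 and 8 reads, near Rhbdd2) and chr2:50017465-50017641 (minus, 27 and 11 reads, 48.8 kb from Lypd6). The first of these overlaps an intergenic locus on the other strand, chr18:26003285-26005656 (plus), with 0 reads in replicate 1 and 11 in replicate 2, so RNA was read there in both libraries on different strands. Lower in replicate 1 were the scaffold locus and 2 short loci at the end base of processed pseudogenes. These were chr11:41500458-41500910 (plus, 0 and 41 reads) at Hspd1-ps3, at least 8.49-fold higher in replicate 2, and chr12:56373460-56373593 (minus, 0 and 22 reads) at Cox6c2, at least 4.56-fold. Of the 24 loci lower in replicate 1, 11 shared a base with a gene, 7 of them with a processed pseudogene. Of the 19 loci higher in replicate 1, 1 shared a base with a gene, and of the 77 not called, 24 did.

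Most called loci had a neighbour that was not tested. Over all features 25.2% were called higher in replicate 1 and 11.6% higher in replicate 2. The few neighbours below were not tested against those shares. Among loci called higher in replicate 1, the neighbour was called higher for 2, lower for 1, not called for 5 and not tested for 11. Among those called lower, it was lower for 1, higher for 3, not called for 4 and not tested for 16. The 3 loci farthest from a gene with at least 10 reads were chr1:27505703-27505813 (minus, 0 and 11 reads, 169 kb from Gm19641), the 3-exon locus chrX:137358641-137462812 (plus, 5 and 6 reads, 108 kb upstream of Il1rapl2) and the X locus above.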

How the data were processed

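RNA of mouse adrenal gland was measured by long-read RNA sequencing in 2 libraries of 1 group, numbered as replicates in the labels. The authors deposited, for each library, a table of raw read counts by transcript model, with no normalisation, and a matching annotation. Per the labels the assembly is mm10, and per the file headers the annotation is GENCODE M21 with TALON attribute names. The sources used here give no aligner, tool version or end-matching setting. Total counts were 793999 and 1290342 reads, with 752432 and 1210671 in annotated genes, which are the base of CPM.

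Members and lists were chosen with earlier results of these data known. Gene bounds were taken from annotated transcripts, since the deposited gene records are extended by each library's own models (1419 and 1987 genes). Of 55536 annotated genes all had the positions of the reference GENCODE M21. Loci were joined with bedtools 2.31.1. Named loci are the 10 multi-exon and 10 single-exon ones with the most summed CPM, the 8 shared chains with the most reads, the 5 largest ratios in each direction with at least 20 reads, the 5 models with the most exons, the 5 longest and the 3 farthest from a gene. Fisher's exact test used scipy 1.17.1, a prior of 0.5 reads for ratios, and was tested on simulated data. Scaling alternatives came from edgeR 4.0.16 and DESeq2 1.42.0. RefSeq tables of GRCm38.p6 gave a strand for 27025 of 49997 genes, and starts on chromosome 18 were left out of the loci counted at RefSeq starts. Intervals are 95% Clopper-Pearson, and a count of 0 allows up to 3 reads.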

Additional observations from a re-analysis of the deposited data

How the results depend on the processing

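Reads of intergenic models averaged 4768 CPM over the libraries, 2895 in models of at least 2 reads and 1888 in those of at least 5. The multi-exon share averaged 9.87%, and 6.88% with at least 2 reads. The share with a base on a gene averaged 20.4%, 15.6% with protein-coding genes alone and 26.5% at loci of at least 5 reads. Recurrence averaged 26.7% of loci, and 54.0% with at least 2 reads. That of intron chains averaged 12.2%, and 40.2% with at least 2 reads. The test called 43 of 120 loci (35.8%, against 36.7% of all features). With at least 20 reads it called 23 of 46 (50%, against 42.7% of all features). With no minimum it called 52 of 4162 loci (1.25%, against 17.1% of all features), 34 of them higher in replicate 1. These changes follow from the models or genes each setting keeps. All reads as total and the deposited gene records, chosen after seeing the data, moved these averages by less than the spread between libraries. Other scalings and priors changed the number of called loci by less than 1.5 times. Recurrence averaged 26.3% with at least 50% overlap, 29.1% on either strand and 24.5% after thinning, and that of chains 12.7% with a 5-base splice tolerance. These moves were also below the spread. For recurrence, however, that spread mostly reflects unequal numbers of loci and models, so it is a wide yardstick.

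Leaving out a library gave 4574 and 4962 CPM, 8.84% and 10.9% multi-exon and 19.5% and 21.2% on a gene base. Recurrence and the test need both libraries. Of 29 named loci, TMM and DESeq2 scaling each left 26 as they were, whether called or not called. The locus chr2:75638370-75642874 lost its call (adjusted p = 0.0982 by TMM), and chrX:32502591-32507553 and chr11:88890249-88896412 gained one. No paired analysis was possible because there is 1 group. Splice dinucleotides, poly(A) signals and A content were not run, as no genome sequence was used here.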

Other observations

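Introns of similar length recurred at loci far apart. In models of 2 exons, introns of 5200 to 5399 bases occurred in 14 models at 10 loci on chromosomes 1, 2, 4, 5, 7, 10 and 13, 8 models in replicate 1 and 6 in replicate 2. Their introns spanned 5276 to 5342 bases and their exonic lengths 1836 to 3083 bases, and 4 of the 10 loci had the same chain in both libraries. Introns of 5000 to 5199 bases numbered 2 in each library, and those of 5400 to 5599 bases 1 in replicate 1 and 0 in replicate 2, out of 302 and 463 introns in all. Antisense models had 4 of 818 and 11 of 1309 introns of 5200 to 5399 bases, against 11 and 8 in intergenic models of any exon number. Another high count in intergenic models was 13 introns of 4000 to 4199 bases in replicate 2, against 2 in replicate 1. The loci with such an intron in both libraries were that at the Gm52720 start on chromosome 4, those near Vmn2r81 on chromosome 10 and Hist1h4m on chromosome 13, and chr7:48124180-48132210 (minus, 2 and 1 reads). All 14 models together held 31 reads in replicate 1 and 22 in replicate 2. This length was noticed in the data and not tested.

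RefSeq genes of either strand overlapped 602 of 1706 models (35.3%) in replicate 1 and 1028 of 3088 (33.3%) in replicate 2. On the same strand, where the table gives a strand, they overlapped 210 (12.3%) and 368 (11.9%). A same-strand RefSeq gene whose symbol is not in the annotation lay over 23.7% and 25.3% of multi-exon models and 4.41% and 4.12% of single-exon models.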
